A study of Mus musculus with 23 samples.

Results

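Spinal motor neurons that drive skeletal muscle differ in size, target fibre and firing, and 9 genes used to tell these types apart were followed here: the fast alpha markers Chodl and Mmp9, the alpha markers Rbfox3 and Spp1, the slow marker Sv2a and the gamma markers Esrrg, Esrrb, Htr1d and Wnt7a. They were taken by gene name and are 9 of the 38924 gene IDs quantified in every library. The libraries came from spinal cords of mice 2 weeks old that carry RiboTag, an HA-tagged copy of the ribosomal protein Rpl22 that is switched on by Cre recombinase. An antibody to the tag pulls down ribosomes with the messenger RNA they hold, so that RNA from the tagged cells is enriched over the rest of the cord. The comparison named in the study title is between mice with and without a C201R change in 1 copy of Gars, the glycyl-tRNA synthetase gene, a gene in which mutations cause an inherited motor and sensory neuropathy.

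There were 23 libraries in 4 groups, on the mixed background that the labels write as B6.CgxB6.129. Wild-type Cre libraries (n = 5) were Rpl+/-, Chat+/- and C201R+/+, and mutant Cre libraries (n = 6) were Rpl+/-, Chat+/- and C201R+/-. The controls without Cre, wild type (n = 6) and mutant (n = 6), were Chat+/+ and also Rpl+/-, so that every group carried the unswitched or switched tag allele. ChAT-Cre acts in all cholinergic cells, which include visceral motor neurons and cholinergic interneurons beside the alpha and gamma motor neurons. Separate animals per library are not stated in the labels, and the p-values therefore cover the variation among these libraries, which may be technical.

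Alpha motor neurons contract the force-producing fibres of a muscle, and gamma motor neurons set the tension of the small fibres inside the muscle spindle, the stretch sensor. Alpha motor neurons are divided further by the fibres they reach, fast-fatigable units being large and the first lost in several motor neuron diseases, slow units being small and resistant. Rbfox3 (NeuN) protein is strong in alpha and weak in gamma motor neurons, and Esrrg shows the opposite pattern, which is why the pair is often stained together.

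Depth set how well each marker could be read. Total counts were 9031654 to 19671869 per library, of which models of ribosomal RNA, counted here with Gm26924, Gm15662 and Lars2, took 50.55 to 95.62%, leaving 594381 to 6237428 other counts. The shallowest library by that measure was a mutant control (594381), and wild-type Cre libraries (1213587 to 4466013) were on the whole shallower than mutant Cre libraries (2927104 to 6237428). Motor neuron identity was checked with a list of 12 general motor neuron markers, of which 11 were found: all 11 rose with Cre in the average over both genotypes, with a median log2 difference of 4.23 beside -0.28 over all genes tested. Chat, the enzyme that makes acetylcholine, was at 68.4, 39.1, 56.3, 51.1 and 65.4 counts-per-million (CPM, scaled by TMM) in the 5 wild-type Cre libraries and at 1.18 to 6.00 CPM in the wild-type controls.

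Ordered by level per transcript length (transcripts-per-million, TPM), Spp1, Chodl and Rbfox3 stood above all 4 gamma markers, and Mmp9 stood below Esrrg. In wild-type Cre libraries mean TPM was 97.4 for Spp1, 79.2 for Chodl, 34.8 for Rbfox3, 10.9 for Esrrg, 10.5 for Sv2a, 6.51 for Mmp9, 1.01 for Esrrb, 0.88 for Wnt7a and 0.534 for Htr1d. Chodl lay above Rbfox3, Rbfox3 above Esrrg, Sv2a above Mmp9 and Mmp9 above Esrrb in 5 of 5 libraries. Spp1 lay above Chodl in 4 of 5 and Esrrb above Wnt7a in 4 of 5, whereas Esrrg lay above Sv2a in 2 of 5 and Wnt7a above Htr1d in 3 of 5, so these neighbours were not separated beyond the spread between libraries. The mutant Cre libraries gave the same order for the first 7 genes, and Esrrg was above Sv2a in 3 of 6 of them. The order is of levels in the precipitate, with background RNA included. In wild-type controls mean TPM was 9.86 for Spp1, 1.89 for Chodl, 9.27 for Rbfox3, 5.2 for Esrrg and 16.8 for Sv2a. It was 1.41 for Mmp9, 0.353 for Esrrb, 1.25 for Wnt7a and 0.142 for Htr1d.

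Enrichment of a marker transcript over the background precipitate was read from the comparison of Cre libraries with controls, in each genotype. This is a relative measure, so a gene that did not rise can still be on the tagged ribosomes. In wild type, 6 of the 9 genes rose with Cre (Chodl, Mmp9, Rbfox3, Spp1, Esrrg and Htr1d) and 1 fell under TMM scaling (Sv2a), where 20% of all 12485 genes tested rose and 25.9% fell (edgeR quasi-likelihood test, Benjamini-Hochberg adjusted over all genes tested). In mutants 5 rose (Chodl, Mmp9, Rbfox3, Spp1 and Esrrb) and 1 fell (Sv2a), beside 14.1% and 19.2% of 12741 genes. Htr1d in wild type and Esrrb in mutants reached the count filter through the Cre libraries alone, so these 2 calls are partly tied to the filter. With no filter Htr1d was not called in wild type (2.38, adjusted p = 0.0715, edgeR), whereas Esrrb was still called in mutants. Averaged over both genotypes in a fit of all 23 libraries, 7 rose and Sv2a fell, beside 22.1% and 34.7% of 14468 genes, and Wnt7a was the member not called. Groups did not overlap in CPM for Chodl, Mmp9, Rbfox3, Spp1 and Htr1d in wild type (11.8% of genes were higher without overlap) and for Chodl, Mmp9 and Spp1 in mutants (8.74%). The RNA came from whole cord precipitates, so fewer cells of a type and less RNA per cell cannot be told apart in any of the values that follow.

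**Figure D1:**
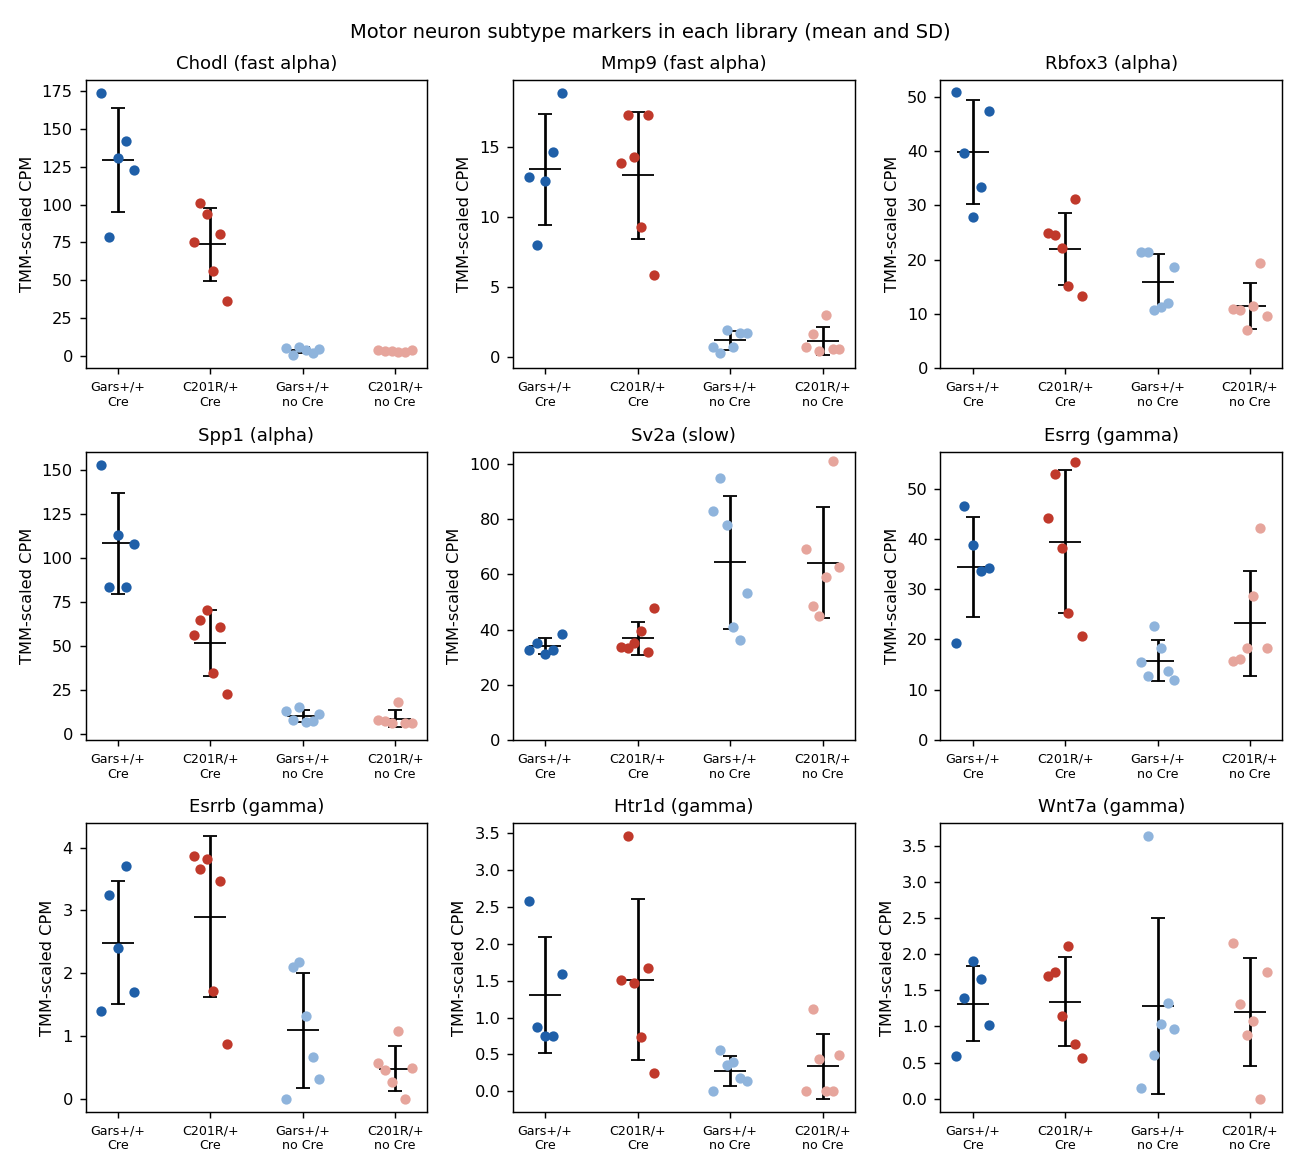
TMM-scaled CPM of the 9 marker genes in each of the 23 libraries on linear axes, 1 panel per gene, by group, each point 1 library, the horizontal bar the group mean and the whiskers 1 SD. Chodl runs from 36.3 to 174 CPM with Cre and from 0.419 to 5.90 without, whereas the wild-type mean of Sv2a is 34.0 with Cre and 64.4 without, and Wnt7a overlaps between all 4 groups.

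Chodl, which encodes the membrane lectin chondrolectin, marks fast motor neurons and had the largest Cre effect of the 9. Its wild-type Cre libraries were at 174, 78.8, 131, 142 and 123 CPM, and wild-type controls ran from 0.419 through a median of 4.05 to 5.90 CPM. Mutant Cre libraries ran from 36.3 through 78.0 to 101 CPM, and mutant controls from 2.35 through 3.03 to 3.78 CPM. The lowest Cre library of either genotype was thus far above the highest control. The log2 difference was 5.28 (SE 0.46, adjusted p = 8.267e-07, edgeR) in wild type and 4.51 (SE 0.28, adjusted p = 2.788e-07) in mutants. The gene is ENSMUSG00000022860 on chromosome 16, 78930948 to 78951733 (GRCm38, plus strand).

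Mmp9, a secreted matrix metalloproteinase known for marking the fast motor neurons that degenerate early in models of amyotrophic lateral sclerosis, was a weaker signal than Chodl. Wild-type Cre libraries gave 12.9, 7.98, 12.6, 14.7 and 18.9 CPM, and wild-type controls 0.279, 1.22 and 1.93 CPM as lowest, median and highest. Mutant Cre libraries gave 5.83, 14.1 and 17.3 CPM in the same order, and mutant controls 0.398, 0.652 and 3.02 CPM. Cre and control libraries did not overlap in either genotype, and the log2 differences were 3.55 (SE 0.45) and 3.48 (SE 0.48), both past the threshold. Neutrophils also make Mmp9, and the summed level of 6 neutrophil markers was 1.02 to 6.53 CPM in wild-type Cre and 1.32 to 12.7 CPM in mutant Cre libraries, overlapping the 2.79 to 34.0 CPM of the controls. Its part in the Mmp9 level was not tested. Mmp9 is ENSMUSG00000017737 on chromosome 2, 164940780 to 164955850 (plus strand).

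Spp1, which encodes the secreted phosphoprotein osteopontin, is held at high level by alpha motor neurons. It was at 153, 83.7, 113, 83.5 and 108 CPM in wild-type Cre libraries and at 6.81, 9.49 and 15.1 CPM (lowest, median, highest) in wild-type controls. Mutant Cre libraries were at 22.6, 58.6 and 70.3 CPM and mutant controls at 6.29, 6.81 and 18.3 CPM. Every Cre library was above every control, and the log2 difference was 3.50 (SE 0.28, adjusted p = 4.015e-07, edgeR) in wild type and 2.50 (SE 0.34, adjusted p = 6.098e-05) in mutants. Microglia and oligodendrocyte-lineage cells can make Spp1 as well. In the Cre libraries 11 microglial markers summed to 9.29 to 14.8 CPM in wild type and to 9.16 to 185 CPM in mutants, beside 41.7 to 99.1 CPM in the controls. No microglial marker was at 0 over a whole Cre group, and P2ry12, Tmem119 and Trem2 were each at 0 in 2 of 5 wild-type Cre libraries. The gene is ENSMUSG00000029304 on chromosome 5, 104435118 to 104441050 (plus strand).

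Rbfox3, the neuronal splicing factor known as NeuN, is present in most spinal neurons and rose less. Wild-type Cre libraries gave 50.9, 39.6, 27.8, 33.4 and 47.4 CPM, and their controls 10.7, 15.2 and 21.4 CPM as lowest, median and highest. Mutant Cre libraries gave 13.3, 23.4 and 31.1 CPM and mutant controls 6.94, 10.7 and 19.4 CPM, so that the mutant groups overlapped and the wild-type groups did not. The log2 difference was 1.42 (SE 0.27) in wild type and 0.91 (SE 0.28) in mutants, both past the threshold. With library totals alone the wild-type difference was 1.49 and was not called (adjusted p = 0.142, edgeR). Of 10 general neuronal markers, 8 rose with Cre in the average over genotypes, with a median log2 difference of 1.71, and the Rbfox3 value in that fit was 1.15 (SE 0.19). Rbfox3 is ENSMUSG00000025576 on chromosome 11, 118489762 to 118911597 (minus strand).

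Sv2a, a glycoprotein of synaptic vesicles that has been used as a slow motor neuron marker, went the other way. Wild-type Cre libraries lay close together at 32.5, 35.1, 31.2, 32.7 and 38.3 CPM, whereas wild-type controls ran from 36.2 through 65.5 to 94.9 CPM. Mutant Cre libraries ran from 31.7 through 34.4 to 47.9 CPM and mutant controls from 44.8 through 61.0 to 101 CPM, so both pairs of groups touched at the edge. The log2 difference was -0.83 (SE 0.26, adjusted p = 0.01665, edgeR) in wild type and -0.86 (SE 0.23, adjusted p = 0.008741) in mutants. The direction was not kept under every scaling: with library totals alone the differences were -0.50 in wild type, 0.62 in mutants and 0.06 in the average, none of them called, and the median of all genes in mutants moved from -0.14 to 1.13. Without wild-type Cre replicate 3 the wild-type difference was -0.77 (adjusted p = 0.0558 by edgeR, in a range of 0.00437 to 0.657 over its alternatives). With the leading title number as a block, Sv2a was not called in wild type (-0.61, adjusted p = 0.0726) or in the average (-0.40, adjusted p = 0.0958). Sv2a is ENSMUSG00000038486 on chromosome 3, 96181151 to 96195521 (plus strand), and it is made by neurons of most types.

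The gamma markers were weaker and less even. Esrrg, an orphan nuclear receptor (estrogen-related receptor gamma), was at 19.2, 46.6, 38.7, 33.6 and 34.2 CPM in wild-type Cre libraries and at 11.9, 14.6 and 22.6 CPM (lowest, median, highest) in wild-type controls. Mutant Cre libraries gave 20.6, 41.2 and 55.2 CPM and mutant controls 15.8, 18.2 and 42.2 CPM. Both pairs overlapped, in wild type through replicate 1 alone. The log2 difference was 1.21 (SE 0.26, adjusted p = 0.001211, edgeR) in wild type and 0.72 (SE 0.31, adjusted p = 0.0814) in mutants. Leaving out mutant Cre replicate 6 gave 1.04 in mutants (adjusted p = 0.0111), leaving out mutant control replicate 4 gave 0.98 (adjusted p = 0.0274) and leaving out mutant control replicate 5 gave 1.14 (adjusted p = 0.00398), in an adjusted range of 0.00398 to 0.163 over the alternatives run. In mutants Esrrg was also called in 5 of 7 other alternatives, among them library totals (2.34) and no filter (0.87). The wild-type call was kept in 7 of 8 such alternatives and lost with library totals (1.46, adjusted p = 0.156, edgeR). Esrrg is ENSMUSG00000026610 on chromosome 1, 187608791 to 188214885 (plus strand).

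Esrrb, the beta receptor of the same family, is found in gamma and has also been reported in slow alpha motor neurons. It was at 1.39, 3.24, 2.40, 3.70 and 1.70 CPM in wild-type Cre and at 0 to 2.17 CPM in wild-type control libraries. Mutant Cre libraries ran from 0.877 through 3.56 to 3.86 CPM and mutant controls from 0 through 0.472 to 1.08 CPM, so both pairs overlapped. The log2 difference passed in mutants (2.50, SE 0.54, adjusted p = 0.00222, edgeR) and not in wild type (1.30, SE 0.71, adjusted p = 0.1434), although a block on the leading title number gave a called 2.32 there (adjusted p = 0.0364, in a range of 0.0364 to 0.274). These 2 effects were not shown to differ: the interaction was 1.32 (SE 0.90, adjusted p = 0.5892). Each Cre library held 7 to 123 Esrrb counts. Mutant controls held 0 to 9, so in mutants the gene reached the count filter through the Cre libraries alone. The mutant call was kept in 7 of 7 other alternatives, no filter among them. The gene is ENSMUSG00000021255 on chromosome 12, 86361117 to 86521628 (plus strand).

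Htr1d, a G-protein-coupled serotonin receptor, and Wnt7a, a secreted Wnt ligand that gamma motor neurons make from late gestation, were near the lower limit of these libraries. Htr1d gave 2.58, 0.877, 0.744, 0.755 and 1.59 CPM in wild-type Cre libraries, all above the 0 to 0.558 CPM of their controls, from 9 to 20 counts a library. Its log2 difference was 2.30 (SE 0.74, adjusted p = 0.01821, edgeR) in wild type and 1.71 (SE 0.74, adjusted p = 0.0836) in mutants. In wild type the gene reached the count filter through the Cre libraries alone, the controls holding 0 to 10 counts, so the call is partly tied to the filter. With no filter it was not called there (2.38, adjusted p = 0.0715, edgeR). Of 11 wild-type fits that left out 1 library, 5 held the gene, and the ranges below cover only fits that held it. Without wild-type Cre replicate 1, the highest, the wild-type value was 1.95 (adjusted p = 0.0633, in a range of 0.00521 to 0.195), and in mutants it was called without Cre replicate 6 (2.09, adjusted p = 0.0344) or without control replicate 2 (2.42, adjusted p = 0.0363), in a range of 0.0103 to 0.213. It was also called in mutants by DESeq2 (1.93), with library totals (2.64) and without title number 18405 (2.94). Wnt7a gave 0.595, 1.40, 1.90, 1.66 and 1.02 CPM in wild-type Cre libraries and 0.145 to 3.63 CPM in their controls, a log2 difference of 0.15 (SE 0.67). In mutants it was 0.01 (SE 0.52), so no enrichment of Wnt7a was detectable at 3 to 58 counts per Cre library. Htr1d is ENSMUSG00000070687 on chromosome 4, 136423524 to 136444398 (plus strand), and Wnt7a is ENSMUSG00000030093 on chromosome 6, 91363981 to 91411363 (minus strand).

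**Figure D2:**
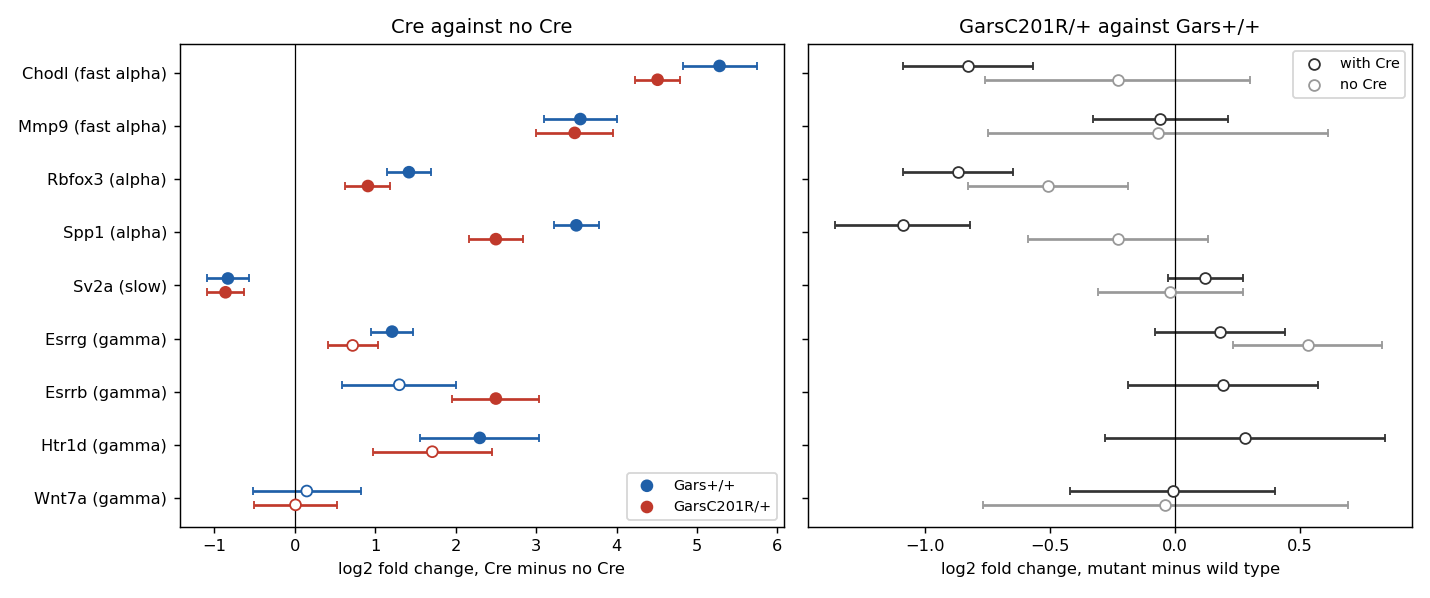
Log2 fold changes of each marker gene from edgeR with bars of 1 SE, on the left Cre minus no Cre in each genotype and on the right mutant minus wild type with and without Cre, filled where the adjusted p was under 0.05. On the left Chodl is highest (5.28 and 4.51) and Sv2a is below 0 under this TMM scaling. With library totals Sv2a was at 0.62 in mutants, not called and below the median of all genes there. On the right no point is filled, Esrrb and Htr1d being too low to test without Cre.

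Other genes reported for the same motor neuron types give the setting in which these markers moved. In the average Cre effect used here, 22.1% of all genes rose and 34.7% fell. Of 4 other alpha markers, 4 rose: the kinase Stk32a (log2 2.77), the VIP receptor Vipr2 (2.10), the synaptic vesicle protein Sv2b (1.78) and the protein kinase Prkcd (0.90). Of 4 other fast markers, Calca, which encodes CGRP, rose by 4.67 and the potassium channel subunit Kcng4 by 2.90, the channel Kcnq5 fell by 0.94, and Dlk1 was at 0.12 (SE 0.29, adjusted p = 0.7442 by edgeR). Kcnn3, a calcium-activated potassium channel of slow motor neurons, rose by 1.12. Of 5 other gamma markers, the GDNF receptor Gfra1 rose by 1.57 and the phospholipase Plch1 by 1.21, and Pard3b fell by 3.53. Creb5 (-0.13) and Stxbp6 (-0.20) were not called, and the median of this list was -0.13 beside -0.28 over all genes. Of 3 visceral motor neuron markers, Nos1 rose by 1.59, whereas Fbn2 fell by 2.58 and Zeb2 by 2.42. The lists are small and were chosen with results of these data known, so they describe the setting and support no direction.

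Whether the Gars mutation moved these markers was asked within the Cre libraries. By edgeR, 0 of 9 members were called, where 0.331% of 12399 genes were, and 3 had an unadjusted p under 0.05. These 3 were Chodl, Rbfox3 and Spp1, all lower in mutants, and DESeq2 called all 3, in a fit that called 3.33% of all genes. The log2 difference, mutant minus wild type, was -0.83 (SE 0.26, adjusted p = 0.1593, edgeR) for Chodl, -0.87 (SE 0.22, adjusted p = 0.1003) for Rbfox3 and -1.09 (SE 0.27, adjusted p = 0.09391) for Spp1. Spp1 was the member whose groups did not overlap, the highest mutant library (70.3 CPM) lying under the lowest wild-type library (83.5 CPM), as was so for 1.03% of genes. The other 6 members gave -0.06 (SE 0.27) for Mmp9, 0.12 (SE 0.15) for Sv2a, 0.18 (SE 0.26) for Esrrg, 0.19 (SE 0.38) for Esrrb, 0.28 (SE 0.56) for Htr1d and -0.01 (SE 0.41) for Wnt7a. Chat, which is no subtype marker, was at -0.75 (SE 0.28, adjusted p = 0.22), and 11 general motor neuron markers had a median of -0.59 beside 0.06 over all genes, with none of them called.

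Whether the 3 lower members were called rested on which libraries were used, and their values rested also on the scaling. Leaving out 1 library at a time gave -0.98 to -0.70 for Chodl, -0.99 to -0.76 for Rbfox3 and -1.19 to -0.92 for Spp1. Without wild-type Cre replicate 2, all 3 were called (Chodl -0.98, adjusted p = 0.0279, Rbfox3 -0.90, adjusted p = 0.0375, and Spp1 -1.18, adjusted p = 0.0248), and 8.44% of all genes were called there. That library had the highest sum of 9 oligodendrocyte markers among wild-type Cre libraries (3010 CPM, in a range of 546 to 3010), and the mutant range was 802 to 7090 CPM. Mutant Cre replicates 4 and 6, the mutant Cre libraries of title number 18405, were highest in mutants, with 5150 and 7090 CPM. Without these 3 libraries, a choice made after seeing the data, Chodl was at -0.74, Rbfox3 at -0.67 and Spp1 at -0.90, all 3 called (adjusted p = 0.0121, 0.0411 and 0.00922, edgeR), with 10.9% of genes called. Without mutant Cre replicates 4 and 6 alone, they were at -0.60, -0.66 and -0.81 in that order. None was called there (adjusted p = 0.258, 0.194 and 0.156, edgeR), with 0.277% of genes called. The 8 astrocyte markers summed to 47.0 to 272 CPM in wild-type and 64.4 to 476 CPM in mutant Cre libraries. How far other cell types' RNA enters the genotype differences was not tested. Over all the alternatives run the adjusted p of the 3 genes ran from 0.0121 to 0.666, from 0.0148 to 0.996 and from 0.00815 to 0.81 in that order.

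**Figure D3:**
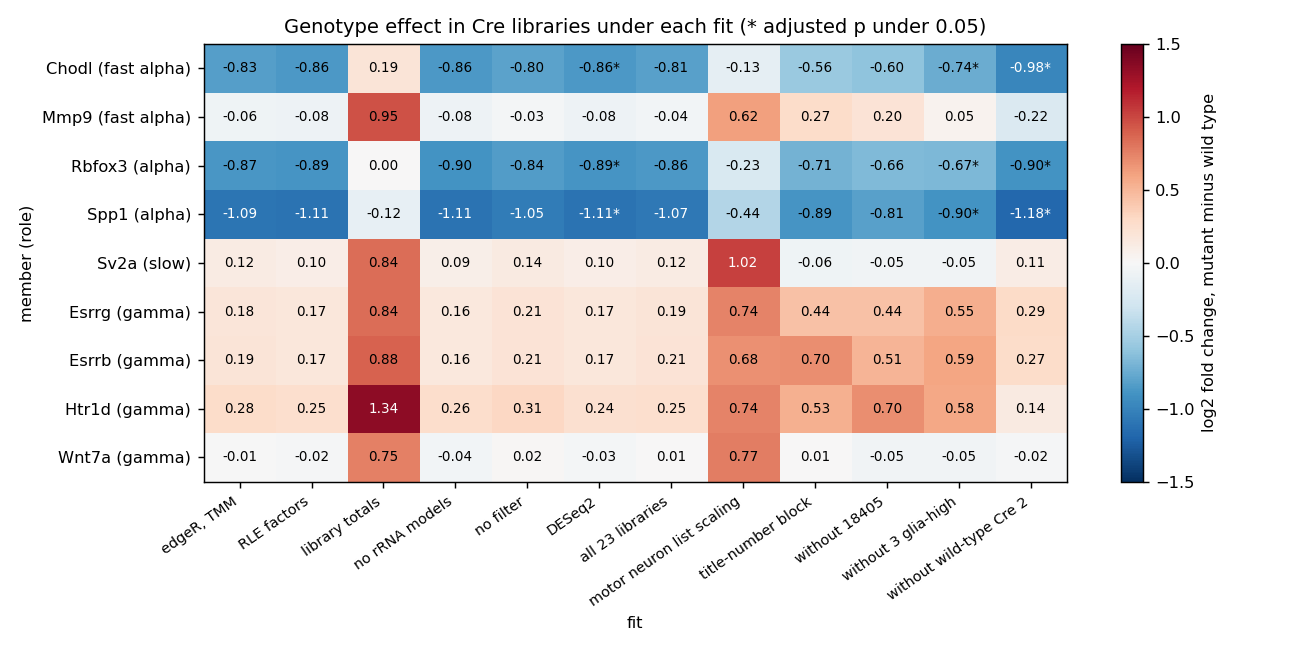
Genotype effect in Cre libraries (log2, mutant minus wild type) of each marker gene, by row, under each fit, by column, as colour and printed value, with a star where the adjusted p was under 0.05. Chodl, Rbfox3 and Spp1 (-0.83, -0.87 and -1.09 in the first column) carry the only stars, and with library totals they stand at 0.19, 0.00 and -0.12.

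Scaling moved these values by as much as their size. With library totals alone the median of all genes became 0.79 and the members stood at 0.19 for Chodl, 0.00 for Rbfox3 and -0.12 for Spp1, still below that median. In the deposited TPM, the mean in mutants against wild type was 89.2 against 79.2 for Chodl, 29.7 against 34.8 for Rbfox3 and 93.8 against 97.4 for Spp1. Scaled to the motor neuron list, Chodl was at -0.13, Rbfox3 at -0.23, Spp1 at -0.44, Sv2a at 1.02 and Esrrg at 0.74, with no member called and a median of all genes of 0.82. That scale is the summed counts of the list, most of which come from the neurofilament gene Nefh. In wild-type Cre libraries Nefh had a mean of 2650 CPM, where the list summed to 2070 to 4020 CPM. Nefh itself was at -0.69 (SE 0.30) in mutants against wild type under TMM. So the sign for Chodl depended on the reference chosen, and the size for Rbfox3 and Spp1.

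Ratios within a library, taken without any scaling, put the members beside Chat. The log2 ratio of Chodl to Chat was 1.19 ± 0.23 (SD, n = 5) in wild-type and 1.18 ± 0.22 (SD, n = 6) in mutant Cre libraries, and that of Rbfox3 to Chat was -0.50 ± 0.37 and -0.56 ± 0.37. Spp1 to Chat was 0.94 ± 0.21 and 0.63 ± 0.12, a difference of -0.30. Against Chat, Esrrg stood 0.99 higher in mutants, Esrrb 0.95, Sv2a 0.94, Htr1d 0.82, Wnt7a 0.77 and Mmp9 0.74, and the groups overlapped in all 9 ratios. Under TMM scaling these members were themselves at -0.06 to 0.28 in mutants against wild type, and Chat was at -0.75 (SE 0.28). Spreads were wide: Esrrg to Chat was -0.73 ± 0.75 in wild type and 0.26 ± 0.35 in mutants. Sv2a to Chat was -0.70 ± 0.34 and 0.24 ± 0.90, highest in mutant Cre replicates 4 and 6. Among 8 ratios between members, the ratio of Esrrg to Rbfox3 was -0.23 ± 0.74 in wild-type and 0.82 ± 0.16 in mutant libraries, with a difference of 1.05. Its groups lay close without overlap, the highest wild-type library at 0.48 and the lowest mutant library at 0.62. Wild-type replicate 1, with 97 Esrrg counts, was lowest at -1.40. How often other gene pairs fail to overlap was not computed. The ratios were chosen after the data were seen, 17 were computed, and they are given as descriptions with no test.

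**Figure D4:**
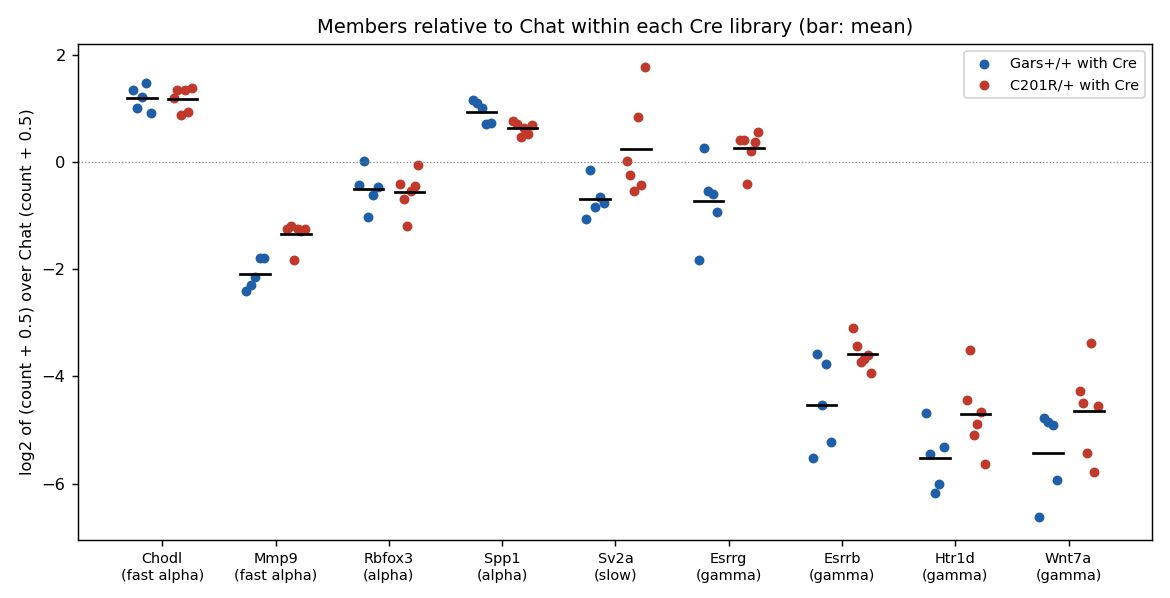
Log2 ratio of each marker gene to Chat in each Cre library, by genotype, each point 1 library and each bar a mean. Chodl means are 1.19 and 1.18 in wild type and mutants, while the mutant mean of Esrrg is 0.99 above the wild-type mean. Chat itself was at -0.75 in mutants against wild type under TMM scaling.

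Libraries were also split by the leading number of their titles, the meaning of which the labels do not give. Numbers 20302 and 20401 each held 2 mutant and 2 wild-type Cre libraries, and within them the log2 CPM difference was -0.53 and -0.43 for Chodl, -0.53 and -0.75 for Rbfox3, and -0.86 and -0.78 for Spp1, against -0.84, -0.86 and -1.12 over all Cre libraries. Mmp9 gave 0.00 and 0.59, Esrrg 0.40 and 0.60, and Esrrb 0.65 and 0.54. Number 18405 held only mutants and number 20304 only wild type among the Cre libraries, so there the number and the genotype cannot be told apart.

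In controls without Cre no member was called for genotype. By edgeR 0 of 7 tested members were called, where 0% of 12588 genes were, none had an unadjusted p under 0.05, and DESeq2 called 0. Values lay between -0.51 (SE 0.32) for Rbfox3 and 0.53 (SE 0.30) for Esrrg. The test of whether the genotype effect differed between Cre and control libraries called 0 of 9 by edgeR, where 0.0207% of 14468 genes were called, with 0 at an unadjusted p under 0.05. DESeq2 called 0, with 1 at an unadjusted p under 0.05. The comparisons above share their groups, so they are not independent of one another.

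The 9 genes did not vary as 1 block over the 11 Cre libraries. Chodl and Spp1 had a Pearson r of 0.95 in log2(CPM + 1), Rbfox3 and Spp1 0.90, and Chodl and Rbfox3 0.81. Esrrg and Esrrb, the related receptors, had 0.84, whereas Chodl and Esrrg had 0.11 and Chodl and Sv2a -0.76. Among 5839 other genes with a mean of at least 5 CPM, those most like Chodl were Esyt1 (0.984), Psmd12 (0.982) and Acly (0.976), and those most like Spp1 were Lingo4, Cpne6 (0.982 each) and Rgs4 (0.979). Most like Esrrg was Map2k4 (0.982), most like Rbfox3 was Chic1 (0.967), most like Sv2a was Col11a2 (0.941), and most like Mmp9 was Add2 (0.931). For the weakly expressed genes the closest were Rnf187 for Esrrb (0.939), Exoc2 for Htr1d (0.915) and Mocs2 for Wnt7a (0.853). These values are descriptions over libraries that share both genotypes, depth and scaling.

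The 250 bases before the annotated start were read for the members because Chodl and Spp1 varied together, apart from Esrrb, (RefSeq, GRCm38.p6). The table held 14 windows for 8 of the 9 members, with none for Mmp9. Of these windows 3 are shown, 5′ to 3′ on the plus strand, at chr16:78930698-78930947 for Chodl, chr5:104434861-104435110 for Spp1 and chr12:86360867-86361116 for Esrrb, with any match to the searched motifs in capitals.
Chodl: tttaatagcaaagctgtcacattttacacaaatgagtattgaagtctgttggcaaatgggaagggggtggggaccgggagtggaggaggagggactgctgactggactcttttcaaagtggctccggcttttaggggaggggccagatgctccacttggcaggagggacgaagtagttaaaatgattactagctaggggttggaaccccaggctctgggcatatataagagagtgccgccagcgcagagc
Spp1: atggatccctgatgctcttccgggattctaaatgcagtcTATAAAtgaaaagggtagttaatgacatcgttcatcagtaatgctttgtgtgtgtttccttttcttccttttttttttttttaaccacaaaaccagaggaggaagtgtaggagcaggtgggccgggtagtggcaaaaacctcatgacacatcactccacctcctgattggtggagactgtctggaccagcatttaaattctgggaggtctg
Esrrb: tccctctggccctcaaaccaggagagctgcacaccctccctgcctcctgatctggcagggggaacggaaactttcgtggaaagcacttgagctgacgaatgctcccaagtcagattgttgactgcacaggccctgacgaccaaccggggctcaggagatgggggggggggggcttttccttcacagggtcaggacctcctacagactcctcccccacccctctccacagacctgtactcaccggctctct
Searched on both strands were TNAAGGTCA, the letters bound by estrogen-related receptors, TAATTA, a homeodomain core, and TATAAA, the TATA box. They stand in 1.14%, 4.84% and 12.4% of all 32851 windows of this length. The capitals in Spp1 mark TATAAA at bases 40 to 45, the first of them at -211 from the annotated start. Only the exact letters were searched, so variants such as tatataag near the end of the Chodl window stay in lower case. Whether any of these stretches acts as a TATA box was not tested. A further Spp1 window held TAATTA and 1 Esrrg window held TATAAA on the minus strand, and TNAAGGTCA was in none of the 14 windows, which says only that these letters are not in them.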

How the data were processed

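Anti-HA precipitates of RiboTag spinal cord were sequenced in 23 libraries. Per the submitters' processing notes, the authors used Bowtie2 2.2.0 and RSEM 1.2.12. The sources used here name no genome build or annotation. The deposited expected counts are estimated counts per gene with no depth normalisation. The deposited TPM, the authors' transcripts-per-million, were used for the order of levels. FPKM were not used. Positions come from GENCODE M21 (GRCm38), to which 37607 of 38924 gene IDs matched.

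Expected counts were rounded and tested with edgeR 4.0.16 under R 4.3.3 (filterByExpr, minimum count 10 and minimum total 15, TMM, quasi-likelihood F tests, SE taken as the log2 difference over the root of F). Each fit held the compared groups alone, and the interaction and average fits held all 23 libraries. Adjusted p-values are Benjamini-Hochberg over all genes tested, with a threshold of 0.05. DESeq2 1.42.0 was an alternative, with other scalings, filters and left-out libraries. CPM are TMM-scaled over all 23 libraries, with ribosomal RNA in the totals, which lowers the depth behind each marker. Analysis scripts were tested on simulated data.

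The members and gene lists were chosen with earlier results of these data known. All 9 members are named, and of other genes the list members and up to 3 genes with the highest correlation to a member. Replicate numbers follow accession order and pair no libraries. Of the 12 motor neuron marker symbols, Slc18a3 was not matched.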

Additional observations from a re-analysis of the deposited data

Results flagged for a closer look

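In 3 of 36 combinations of member and group, 1 library stood far from the others of its group. By Dixon's ratio (gap over range), chance alone gives such a gap in about 1 of 20 groups of independent normal values. The CPM were not log-transformed and the 9 genes share libraries, so that rate is only approximate here. Rbfox3 was at 19.4 CPM in mutant control replicate 5, and the next library of that group was at 11.4 CPM. Spp1 was at 18.3 CPM in mutant control replicate 4, with the next at 7.88 CPM. Wnt7a was at 3.63 CPM in wild-type control replicate 2, with the next at 1.32 CPM. All 3 libraries are controls without Cre, and ribosomal RNA models took 95.62, 90.14 and 83.90% of their counts in that order. The range was 65.79 to 95.62% in mutant controls and 55.48 to 88.46% in wild-type controls.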

How the results depend on the processing

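With library totals alone, 3 members were called in the Cre effect in wild type against 7 under TMM, while the share of all genes called went from 45.9% to 7.28%. Rbfox3, Sv2a, Esrrg and Htr1d were the members no longer called there. Sv2a changed sign to 0.62 in the mutant Cre effect and to 0.06 in the average. Neither value was called (adjusted p = 0.441 and 0.92, edgeR), and the mutant value lay below the median of all genes in that fit. For the genotype effect with Cre, where 0 members were called by edgeR with TMM, 3 were called by DESeq2 (3.33% of all genes, against 0.331%), and 3 without the 3 Cre libraries highest in oligodendrocyte markers, an alternative added after seeing the data (10.9%). For that effect, 0 were called without title number 18405 alone (0.277%). Leaving out 1 library at a time gave 0 to 3 called members there, the 3 arising without wild-type Cre replicate 2 (8.44%). The ranges were 6 to 7 for the Cre effect in wild type, 6 to 8 in mutants, 8 to 8 for the average and 0 to 0 for the interaction and for the genotype effect without Cre. The cause of these shifts was not tested. No paired analysis was possible because the replicate numbers follow accession order. A block on the leading title number, whose meaning is not stated, kept 8 of 11 libraries for the Cre effect in wild type, with 6 called (Sv2a lost, Htr1d too low to be tested, Esrrb gained), and called 0 for the genotype effect with Cre, 0 for the interaction and 6 for the average, where Htr1d (1.72, adjusted p = 0.12, edgeR) and Sv2a (-0.40, adjusted p = 0.0958) were lost. It could not be fitted for the Cre effect in mutants or the genotype effect without Cre, which share 1 number only. Low counts limit Htr1d, Wnt7a and Esrrb most.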

Other observations

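Of 13 paralogs of the markers, 4 rose in the average Cre effect and 3 fell, where 22.1% of all genes rose and 34.7% fell. The genes that rose were Layn, the lectin closest to Chodl in this list (log2 4.33), Sv2b (1.78), Esrra (1.53) and Sv2c (1.14). Those that fell were Mmp14 (-1.86), Htr1a (-1.39) and Rbfox2 (-0.45). Layn was at 14.1 ± 2.42 CPM (SD, n = 5) in wild-type Cre libraries and at 0.835 ± 0.53 CPM (SD, n = 6) in their controls. Sv2c was at 124 ± 24.9 CPM and 46.4 ± 18.5 CPM in the same groups, so both relatives of Sv2a rose where Sv2a fell under TMM scaling.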
